A study of Rattus norvegicus with 6 samples.

Results

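The CC chemokines Ccl2, Ccl7, Ccl20, Ccl5 and Ccl11 were followed in blood vessel endothelial cells sorted from rat skin. They are 5 of the 15037 genes with a symbol on the arrays. Each was chosen by its symbol in the platform annotation and has 1 probeset, and all 5 were among the 11515 genes bright enough to be tested. The arrays compared 3 Il33 knockout animals (28, 27 and 52) with 3 wildtype animals (34, 45 and 37), all Sprague-Dawley. Each genotype held 2 females and 1 male; the males were knockout 52 and wildtype 37. How the knockout was made, which part of the gene it lacks and how old the animals were are not stated in the labels. Pieces of abdominal skin were digested with collagenase for 2 h at 37 °C, CD45-positive and Lyve-1-positive cells were depleted, and CD31-positive cells were kept from every animal. Values are log2 expression as deposited, 1 array per animal.

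CC chemokines are small secreted proteins with a pair of adjacent cysteines that attract leukocytes through G protein-coupled receptors. Endothelium makes some of them itself and carries others, bound to heparan sulfate, on its luminal face, where rolling leukocytes meet them. Ccl2 and Ccl7 draw monocytes through Ccr2, Ccl20 draws Ccr6-positive lymphocytes and dendritic cells, Ccl5 draws T cells, monocytes and eosinophils, and Ccl11 (eotaxin) draws eosinophils through Ccr3. Interleukin-33, a nuclear cytokine of endothelium and epithelium, signals through the receptor chain Il1rl1 to NF-kB, a known activator of Ccl2 and Ccl20.

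In the RefSeq annotation of GRCr8, Ccl2, Ccl7, Ccl11, Ccl12 and Ccl1 follow each other on chromosome 10 with a single lncRNA, between Ccl12 and Ccl1, as the only other gene. Ccl5 lies elsewhere on chromosome 10 and Ccl20 on chromosome 9. The RefSeq promoter table (250 bases before the annotated start to 50 after it) held 2 of the 5 genes, Ccl7 and Ccl20. They are shown because one was far above background and the other was near it, beside their near-background neighbours Ccl12 and Ccl1 of the same cluster. Capitals mark matches, on either strand, to the kappaB consensus, the AP-1 site TGANTCA, the interferon-stimulated response core GAAANNGAAA, the STAT6 site TTCNNNNGAA and the TATA box TATAAA.
Ccl7, chr10:67513845-67514144, GRCr8, plus strand: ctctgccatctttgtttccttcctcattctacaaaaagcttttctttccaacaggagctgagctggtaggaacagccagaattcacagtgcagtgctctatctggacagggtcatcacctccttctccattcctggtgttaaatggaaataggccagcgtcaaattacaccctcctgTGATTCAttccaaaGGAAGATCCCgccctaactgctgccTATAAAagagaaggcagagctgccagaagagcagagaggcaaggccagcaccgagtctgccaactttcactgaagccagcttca
Ccl20, chr9:91836909-91837208, GRCr8, plus strand: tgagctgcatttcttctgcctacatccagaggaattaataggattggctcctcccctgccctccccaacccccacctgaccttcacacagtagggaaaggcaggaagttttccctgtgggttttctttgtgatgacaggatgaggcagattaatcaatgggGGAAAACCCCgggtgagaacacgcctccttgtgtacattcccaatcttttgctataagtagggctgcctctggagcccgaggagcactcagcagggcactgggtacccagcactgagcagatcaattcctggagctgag
Ccl12, chr10:67567626-67567925, GRCr8, plus strand: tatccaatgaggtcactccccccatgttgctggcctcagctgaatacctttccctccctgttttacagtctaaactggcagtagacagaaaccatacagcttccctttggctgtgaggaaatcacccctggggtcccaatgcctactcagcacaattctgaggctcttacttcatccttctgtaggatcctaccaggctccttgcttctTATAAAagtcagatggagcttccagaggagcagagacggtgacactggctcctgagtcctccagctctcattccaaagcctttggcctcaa
Ccl1, chr10:67628691-67628990, GRCr8, minus strand: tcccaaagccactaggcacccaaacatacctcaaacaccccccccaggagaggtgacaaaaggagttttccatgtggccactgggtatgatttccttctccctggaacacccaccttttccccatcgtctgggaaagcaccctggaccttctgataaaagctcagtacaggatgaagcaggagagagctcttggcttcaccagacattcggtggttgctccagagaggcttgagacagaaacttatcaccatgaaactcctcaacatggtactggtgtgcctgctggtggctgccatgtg
The Ccl7 window held an AP-1 match at -73 to -67, a kappaB match on the opposite strand at -59 to -50 and a TATA box at -34 to -29. The Ccl20 window held a kappaB match on the opposite strand at -89 to -80. Ccl12 held a TATA box alone, at -41 to -36, and the letters searched were not in the Ccl1 window. The matches do not overlap. Of 33469 rat promoters of this length, 7.51% held the kappaB consensus, 7.33% the AP-1 site, 14.2% the TATA box, 3.92% the interferon core and 7.28% the STAT6 site. A match describes these letters and does not show binding.

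Array medians were 4.63 to 4.78 and array maxima 19.70 to 19.93. Precision is set by the few arrays: the standard error of a genotype difference had a median of 0.387. Blood endothelial markers (9 of 10 measured) had medians of 15.12 to 15.90 on the knockout arrays and 14.99 to 15.82 on the wildtype arrays. Macrophage and dendritic markers (10 of 11 measured) had medians of 4.40 to 5.26 in the knockout, against 3.78 to 5.12 in the wildtype. Of these, Cd68 (8.85 to 10.72), Lyz2 (6.65 to 10.76) and Cd74 (6.45 to 9.91) exceeded the background limit given below on every array. Csf1r, Adgre1, Mrc1, Itgam and Aif1 exceeded it on none, and Ptprc and Cd14 on some. Keratinocyte markers (7 of 13 measured) had medians of 11.56, 8.44 and 8.07 in knockout 28, 27 and 52, against 15.11, 11.80 and 7.63 in wildtype 34, 45 and 37. The 8 bacterial and phage control transcripts added during preparation had means of 10.26, 9.33 and 8.82 on the knockout arrays and 10.42, 10.12 and 8.91 on the wildtype arrays for the same animals in turn. Knockout 28 and wildtype 34 and 45 are below called the arrays of high spike-in signal, and the others those of low signal. The cut was set from these means, at the midpoint of their range. The arrays of high signal also had the highest keratinocyte medians, so the split cannot be told apart from keratinocyte content. Il33 itself was 8.07, 8.37 and 9.82 in the knockout against 13.86, 16.32 and 16.60 in the wildtype. It fell by 6.84 (limma adjusted p = 0.0439), a call that did not hold without knockout 28, 27 or 52 (adjusted p = 0.270, 0.661 and 0.0687) or without wildtype 45 or 37 (0.653 and 0.0773).

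Of the 5 chemokines, Ccl2 and Ccl7 were above background on all 6 arrays, Ccl11 on 5, Ccl20 on 4 and Ccl5 on 1. The background limit was the 95th percentile of the 23 background control probesets, antigenomic sequences binned by GC content, and it was 5.25 to 5.36 on the knockout arrays and 5.12 to 5.40 on the wildtype arrays. Of all 15037 genes, 39.2% exceeded it on every array, so 2 of 5 is near the share of all genes. Levels of different probesets also depend on their probes, so each gene was set against background and against itself only. The plot of the 5 genes by array shows both groups.

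**Figure D1:**
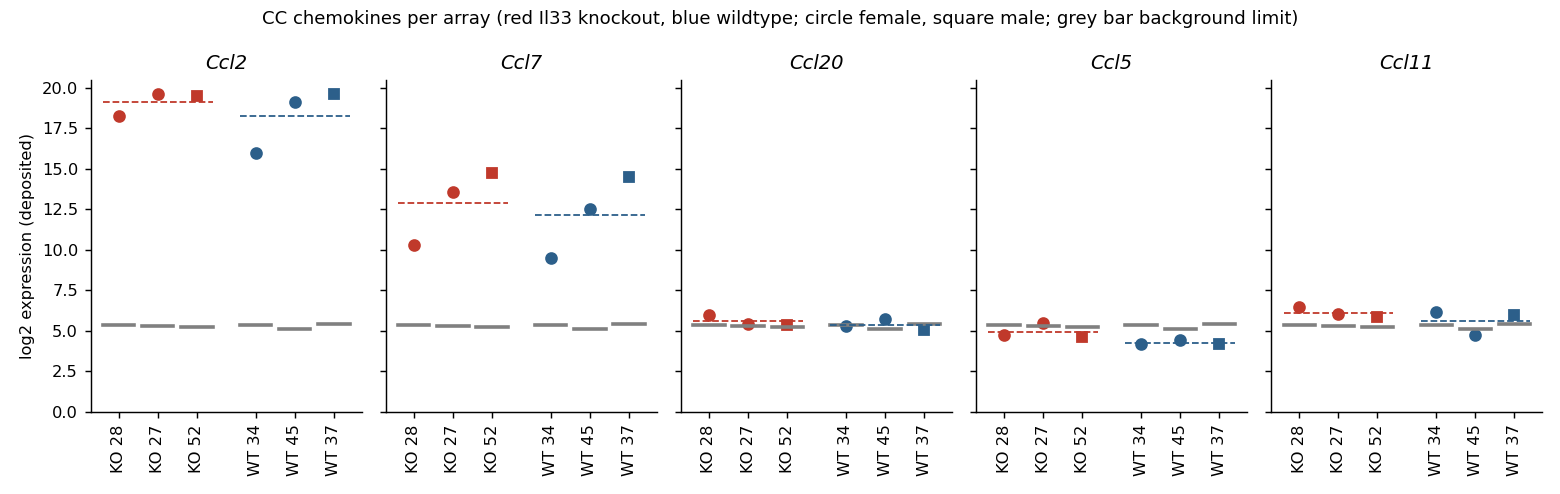
Deposited log2 expression (vertical axis) of Ccl2, Ccl7, Ccl20, Ccl5 and Ccl11 on each array, with the 3 Il33 knockout arrays in red at the left of each panel and the 3 wildtype arrays in blue at the right; circles are females, squares males, dashed lines group means and grey bars the 95th percentile of the antigenomic background on that array. Ccl2 (15.98 to 19.64) and Ccl7 (9.49 to 14.76) lie above the bars on all 6 arrays, Ccl11 on 5, Ccl20 on 4 and Ccl5 on 1.

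Every sample was digested for 2 h at 37 °C, so the levels of Ccl2, Ccl7 and other genes in undigested skin are not known. Ccl2, also named MCP-1, was high in the sorted cells of every animal. It read 18.26, 19.64 and 19.50 in knockout 28, 27 and 52, against 15.98, 19.12 and 19.59 in wildtype 34, 45 and 37. The groups overlapped, and wildtype 34 was lower than every other array. On 4 arrays Ccl2 lay within 0.58 of the array's maximum, by 0.14 in knockout 27, 0.43 in knockout 52, 0.58 in wildtype 45 and 0.34 in wildtype 37. A difference among those animals could be hidden by this ceiling. Its range over the arrays was 3.66, a range reached by 1.08% of the genes tested.

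Ccl7, also named MCP-3 and a neighbour of Ccl2, varied most among the 5 genes. It read 10.28, 13.59 and 14.76 in knockout 28, 27 and 52, against 9.49, 12.49 and 14.52 in wildtype 34, 45 and 37. Knockout 28 and wildtype 34 were low, the male of each genotype was highest, and the groups overlapped over most of their range. The spread of 5.27 was equalled or exceeded by 0.261% of the genes tested. At the lowest array Ccl7 was still 4.12 above the background limit, and its maximum of 14.76 was 5.17 below that array's ceiling.

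Ccl2 and Ccl7 were lowest on the same arrays, knockout 28 and wildtype 34, which were among the 3 with the most keratinocyte transcripts and spike-in signal. The other of these 3, wildtype 45, read 12.49 for Ccl7. Its Ccl2 of 19.12 was near the 19.50 to 19.64 of the arrays of low signal. The order of the animals by Ccl7 was exactly the reverse of their order by spike-in mean, which held for 1.06% of the genes tested. For Ccl7 the arrays of low spike-in signal averaged 14.29 and those of high signal 10.75. For Ccl2 the means were 19.58 and 17.79, and the lower mean held wildtype 34 at 15.98. Wildtype 34, with the highest keratinocyte and fibroblast medians, had the lowest Ccl2 and Ccl7. Pericytes and smooth muscle are a possible source of both transcripts beside endothelium. Their markers (9 of 9 measured) had medians of 11.35, 11.40 and 10.13 in knockout 28, 27 and 52, against 10.32, 9.20 and 10.85 in wildtype 34, 45 and 37. The part of these cells, of keratinocytes, macrophages and fibroblasts, and of the spike-in split in the spread of the chemokines was not tested. In RNA of sorted populations, fewer cells of a type and less RNA per cell cannot be told apart.

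**Figure D2:**
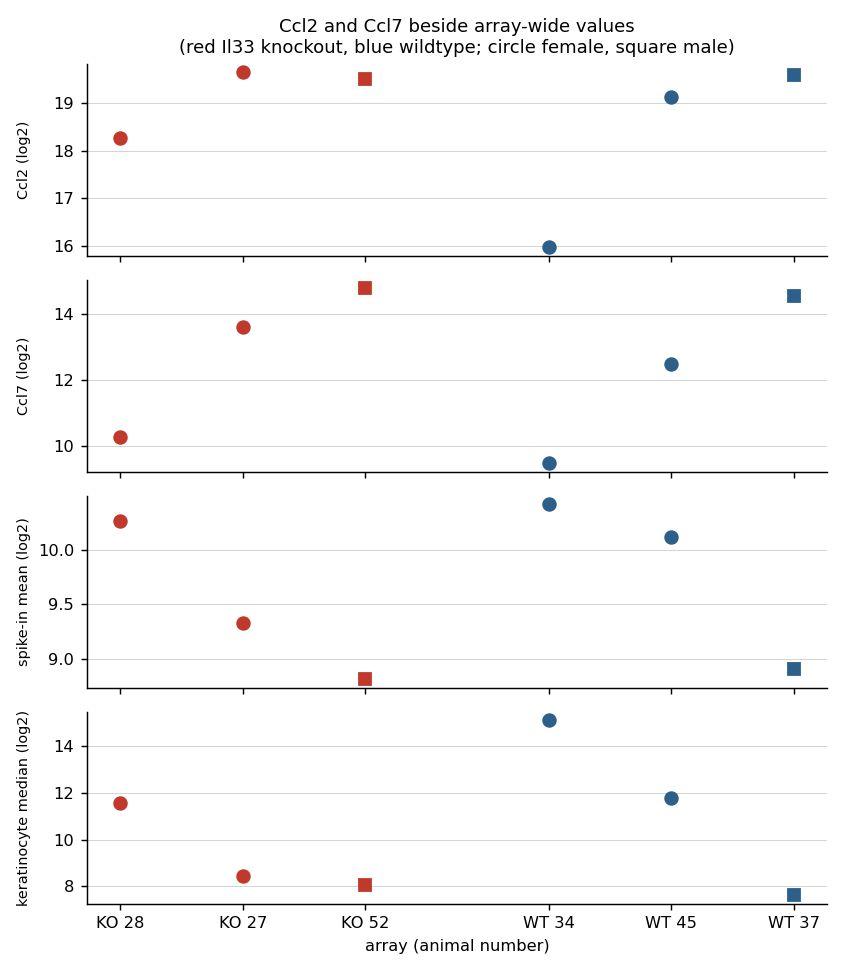
From the top, log2 values of Ccl2, of Ccl7, the mean of the 8 spike-in transcripts and the median of the keratinocyte markers on each array (horizontal axis), with Il33 knockout arrays in red on the left and wildtype arrays in blue on the right; circles are females and squares males, and each panel has its own axis, which does not start at 0. Ccl7 is lowest in knockout 28 (10.28) and wildtype 34 (9.49), where the spike-in means (10.26 and 10.42) are highest.

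Between knockout and wildtype, none of the 5 chemokines passed limma's test across all genes, where 0.00868% of the genes tested passed, Il33 alone. All 5 means were higher in the knockout, as were those of 6229 of the 11515 genes tested. Ccl2 averaged 19.13 ± 0.76 in the knockout and 18.23 ± 1.96 in the wildtype (SD, n = 3 each), a difference of 0.90 with a 95% interval of -0.98 to 2.79 (limma adjusted p = 0.999). Ccl7 averaged 12.88 ± 2.32 and 12.17 ± 2.53, a difference of 0.71 with an interval of -2.24 to 3.66 (limma adjusted p = 0.999). Both differences turned on wildtype 34, without which they were -0.22 for Ccl2 and -0.63 for Ccl7. Ccl7 was also -0.23 without knockout 52.

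Within the spike-in split the Ccl7 difference had the other sign. Among the arrays of high spike-in signal it was -0.71 (1 knockout, 2 wildtype) and among those of low signal -0.345 (2 knockout, 1 wildtype), and with the split as a block it was -0.53 (limma adjusted p = 0.999). For Ccl2 the values were 0.71 and -0.02. Ccl2 differed by 1.40 and Ccl7 by 0.945 among females; for the males these values were -0.09 and 0.24. The males were 1 knockout and 1 wildtype, so the interaction term cannot decide whether a genotype difference depended on sex. Its standard error was 1.62 for Ccl2 and 2.03 for Ccl7. For this term none of the 5 genes passed (limma), and 0 of the genes tested did, while 1.03% had an unadjusted p under 0.05. With the keratinocyte median as a covariate the difference was -0.07 for Ccl2 and -0.96 for Ccl7.

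**Figure D3:**
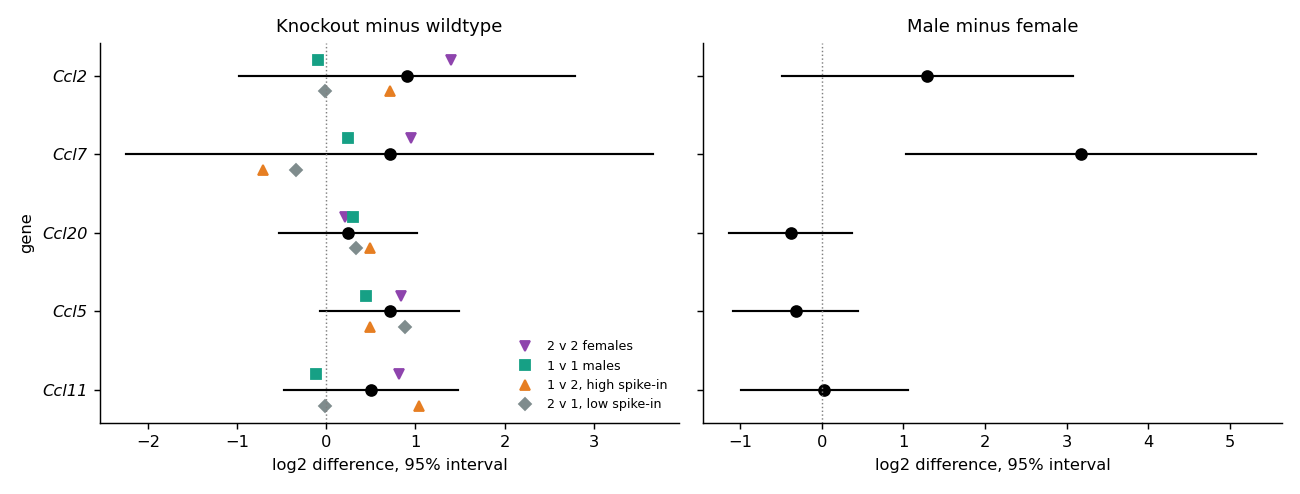
Left, knockout minus wildtype difference in log2 expression with its 95% interval from limma (black, 3 against 3 arrays) for each gene, and the same difference within females, males, the arrays of high and of low spike-in signal (coloured symbols, no interval). Right, male minus female difference with its 95% interval (2 against 4 arrays, genotype in the model); every interval on the left spans 0, and on the right only that of Ccl7 (1.04 to 5.32) does not.

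Ccl5, or RANTES, was the one chemokine of the 5 whose groups did not overlap. It read 4.76, 5.47 and 4.6 in knockout 28, 27 and 52, against 4.15, 4.40 and 4.15 in wildtype 34, 45 and 37. Wildtype 45 and knockout 52 were the nearest to each other across the groups. The means were 4.94 ± 0.46 and 4.23 ± 0.14 (SD, n = 3 each), a difference of 0.71 with an interval of -0.07 to 1.49 (limma across all genes, adjusted p = 0.999, unadjusted 0.0693). Of all genes tested 6.25% had groups that did not overlap, and 1.97% an unadjusted p under 0.05. Only knockout 27 exceeded the background limit, so these values do not show Ccl5 transcripts in the other animals. The difference was between 0.45 and 0.88 on leaving out each array in turn, and was 0.84 among females and 0.45 between the males. The T, NK and B cell markers (9 of 12 measured), of a cell class that makes Ccl5, had medians of 3.99, 3.57 and 3.23 in knockout 28, 27 and 52, against 4.0, 3.71 and 3.14 in wildtype 34, 45 and 37; their part was not tested.

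Ccl11 (eotaxin) was 0.54 to 1.12 above the limit on 5 arrays, where it also exceeded the 99th percentile of the background control probesets. Its values were 6.48, 6.03 and 5.82 in knockout 28, 27 and 52, against 6.17, 4.72 and 5.94 in wildtype 34, 45 and 37. The groups overlapped, and wildtype 45 alone lay below the limit. Means were 6.11 ± 0.34 in the knockout and 5.61 ± 0.78 in the wildtype, a difference of 0.50 with an interval of -0.47 to 1.47 (limma adjusted p = 0.999). Without wildtype 45 the difference was 0.055. Fibroblast markers (8 of 9 measured), of a cell type known to make eotaxin in skin, had medians of 10.18, 9.20 and 8.82 in knockout 28, 27 and 52, against 12.02, 9.90 and 9.40 in wildtype 34, 45 and 37; their part was not tested.

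Ccl20, also named MIP-3alpha and in skin best known from keratinocytes, was above the limit on 4 arrays. It read 5.98, 5.43 and 5.37 in knockout 28, 27 and 52, against 5.26, 5.73 and 5.07 in wildtype 34, 45 and 37. Its groups overlapped and its spread of 0.91 was the smallest of the 5. The means were 5.59 ± 0.34 and 5.35 ± 0.34 (SD, n = 3 each), a difference of 0.24 with an interval of -0.54 to 1.02 (limma adjusted p = 0.999). The keratinocyte medians were 8.07 to 11.56 on the knockout arrays and 7.63 to 15.11 on the wildtype arrays, and their part in Ccl20 was not tested.

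When background was taken instead as the 95th percentile of 1024 olfactory receptor genes, best known from olfactory neurons, the limits were 4.19 to 4.95. Ccl2, Ccl7 and Ccl20 then exceeded it on all 6 arrays, Ccl11 on 5 and Ccl5 on 2. Of all genes 45.4% did so on all 6.

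Between males and females the largest difference of the 5 was that of Ccl7. The males read 14.76 and 14.52, against 10.28, 13.59, 9.49 and 12.49 in the females, so the sexes did not overlap. The difference was 3.18 with a 95% interval of 1.04 to 5.32 (limma across all genes, adjusted p = 0.158, unadjusted 0.00828), and it did not pass the threshold. Males were higher without overlap for 23.5% of the genes tested, and higher with an unadjusted p under 0.05 for 14.8%; the median difference over all genes was 0.18. Both males were arrays of low spike-in signal. With the spike-in split in the model the Ccl7 difference was 0.90 (adjusted p = 0.925), and with the keratinocyte median as a covariate it was 0.40 (adjusted p = 0.904). With array weights it was 3.30 and passed (adjusted p = 0.0374), as did 6.23% of the genes tested.

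The other 4 chemokines differed less between the sexes. Ccl2 was 19.50 and 19.59 in the males against 18.26, 19.64, 15.98 and 19.12 in the females, a difference of 1.30 with an interval of -0.48 to 3.07 (limma adjusted p = 0.407). Ccl20 differed by -0.38, Ccl5 by -0.32 and Ccl11 by 0.03 (limma adjusted p = 0.564, 0.638 and 0.981). The sexes overlapped for each of them. Of the genes tested, 0.0261% passed between the sexes.

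Among the other 15 CC chemokine genes measured, only Ccl21 and Ccl27 exceeded the antigenomic limit on all 6 arrays. Of the 9 tested, 0 passed between the genotypes (limma; 0 at an unadjusted p under 0.05), and their median difference was 0.05, against 0.04 over all genes tested. Ccl27, the keratinocyte chemokine that draws skin-homing T cells, was 6.43 ± 0.29 in the knockout and 7.88 ± 2.27 in the wildtype (SD, n = 3 each). Its value in wildtype 34 was 10.42, against 6.03 to 7.20 on the other arrays. Ccl6 was 4.03 ± 0.45 and 4.80 ± 0.50, below the background limit on 5 arrays. Ccl12 (3.11 to 4.57) and Ccl1 (2.89 to 4.01), the remaining chemokine genes of the Ccl2 cluster, were below it on every array.

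Ccl21, the lymphatic chemokine that guides Ccr7-positive cells, was lower in the males. It read 13.13 and 9.91 in males 52 and 37, against 16.14, 17.06, 15 and 15.82 in females 28, 27, 34 and 45, with no overlap. It fell by 4.49 in males relative to females (limma adjusted p = 0.0322). It was 1 of the 3 genes called between the sexes, and the others were the Y-linked Ddx3y and Eif2s3y. Lymphatic markers (6 of 7 measured, Ccl21 among them) had medians of 7.12 and 5.24 in the males against 7.64, 8.56, 7.62 and 8.29 in the females. Pdpn, podoplanin, was 7.87 and 6.11 in the males against 9.64, 10.31, 9.69 and 10.07 in the females. Prox1, Flt4 and Reln were also lower in the males without overlap. Lyve1 overlapped, at 7.27 and 5.04 in the males against 6.07, 8.22, 5.86 and 7.62 in the females. The part of lymphatic cells in the Ccl21 difference was not tested. The call was lost under 8 of 15 alternatives, while the difference kept its direction in all 15 and was -5.50 to -3.47 over them. It was lost without knockout 52 (adjusted p = 0.0615), wildtype 34 (0.0512), wildtype 45 (0.0704) or wildtype 37 (0.875), with the spike-in split in the model (0.822), with the keratinocyte median as a covariate (0.655), after quantile normalization again (0.0617) and without genotype in the model (0.0704). Between the genotypes Ccl21 differed by 1.87 (limma adjusted p = 0.999).

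**Figure D4:**
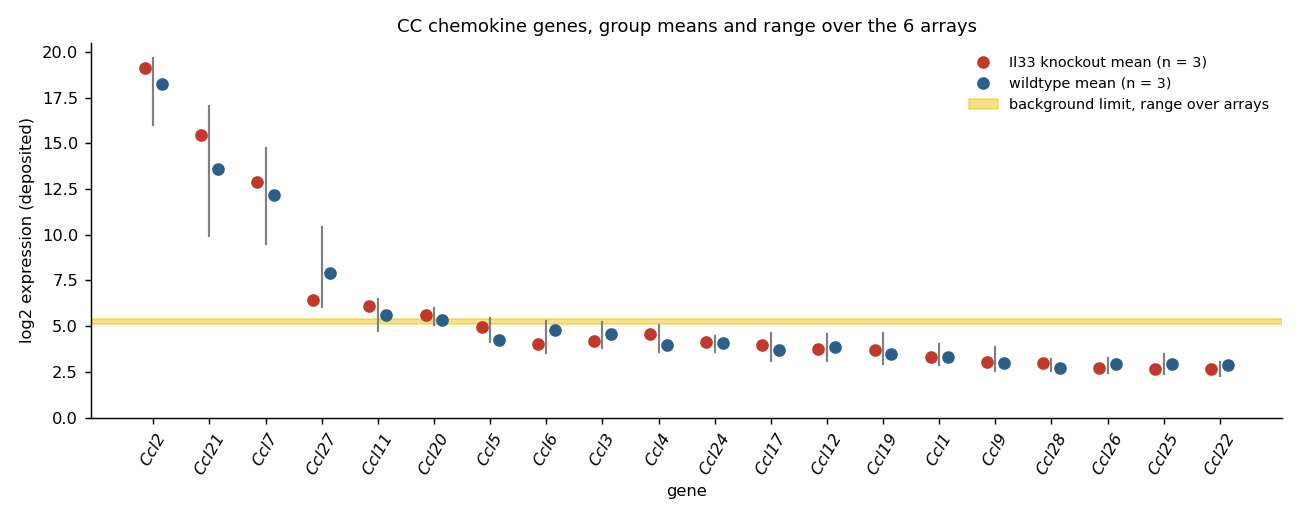
Mean deposited log2 expression of the 20 CC chemokine genes measured, with knockout means in red left of wildtype means in blue (n = 3 each); grey lines span the lowest to the highest of the 6 arrays, and the yellow band spans the background limits of the 6 arrays. Ccl2, Ccl21, Ccl7 and Ccl27 stand wholly above the band, and their order among themselves also reflects their probes.

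Of the CC and atypical chemokine receptors, 11 of 15 listed were measured, 7 were tested and 0 passed between the genotypes (limma; 0 at an unadjusted p under 0.05). The atypical receptor Ackr3, which scavenges the CXC chemokine Cxcl12, was the single one above the limit on all arrays, at 7.54 ± 0.67 in the knockout and 7.59 ± 0.79 in the wildtype. Ackr2, a scavenger of inflammatory CC chemokines, read 5.47, 7.87 and 5.05 in knockout 28, 27 and 52 against 5.29, 6.11 and 4.09 in wildtype 34, 45 and 37, with overlap. Ccr7 was 5.12 ± 0.86 and 5.6 ± 0.94. Ccr2, the receptor of Ccl2 and Ccl7 on monocytes, had 4.49 to 6.38 over the arrays, and Ccr3 and Ccr6, the receptors of Ccl11 and Ccl20, stayed below the limit.

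Among cytokines and receptors that induce chemokines, 25 of 26 were measured and 20 tested. None passed (limma, with 0 at an unadjusted p under 0.05). In the knockout 14 were higher, against 6229 of the 11515 genes tested. The median difference of the 20 was 0.21, against 0.04 over all genes tested. Il6, a cytokine that endothelium makes on activation, was 17.60 ± 0.54 in the knockout and 16.73 ± 1.15 in the wildtype. Osmr, the oncostatin M receptor, was 15.04 ± 0.12 and 14.18 ± 0.70, and Il6st, the shared receptor chain gp130, was 17.12 ± 0.56 and 17.14 ± 0.29. Il1rl1, the receptor chain of interleukin-33, had 3.21 to 4.86 over the arrays, below the background limit on each. Tnf (3.07 to 4.04), Il1a (3.05 to 4.6), Ifng (2.71 to 4.41) and Il13 (2.88 to 3.50) were below it too.

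In the transcriptional relay of chemokine genes, 27 of 32 listed were tested and 22 were higher in the knockout, with 0 passing (limma; 0 at an unadjusted p under 0.05). The median difference was 0.34, against 0.04 over all genes tested, of which 6229 of 11515 were higher in the knockout. Nfkbia, the inhibitor that NF-kB induces, was 18.79 ± 0.11 in the knockout and 18.28 ± 0.65 in the wildtype, where wildtype 34 read 17.54. The stress-induced Atf3 was 17.88 ± 0.21 and 17.84 ± 0.46, and the AP-1 subunit Junb 17.60 ± 0.08 and 17.48 ± 0.36.

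Heparan sulfate genes, whose product holds chemokines on the vessel wall, had 15 tested members. None passed (limma, with 0 at an unadjusted p under 0.05). In the knockout 4 were higher, against 6229 of the 11515 genes tested. The median difference was -0.24, against 0.04 over all genes tested. The polymerase Ext1 was 10.25 ± 0.51 in the knockout and 10.31 ± 0.39 in the wildtype. The sulfotransferase Hs3st1 was 10.26 ± 0.39 and 9.74 ± 0.63, and the sulfatase Sulf1 9.68 ± 1.05 and 10.03 ± 0.82. Of 9 tested proteases that can cut chemokines or their anchors, 4 were higher in the knockout and 0 passed (limma; 0 at an unadjusted p under 0.05). Mmp2, which trims human CCL7, was 10.38 ± 0.97 and 10.47 ± 0.69, Adam10 11.26 ± 0.42 and 10.82 ± 0.83, and Adam17 9.63 ± 0.60 and 9.32 ± 0.39.

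Leukocyte adhesion molecules, which act beside chemokines in arresting leukocytes, had 12 tested members. None passed (limma, with 1 at an unadjusted p under 0.05, as had 1.97% of all genes tested). In the knockout 8 were higher, against 6229 of the 11515 genes tested. The median difference was 0.04, as it was over all genes tested. Sele, E-selectin, was 12.35, 14.31 and 15.99 in knockout 28, 27 and 52 against 12.03, 14.52 and 16.04 in wildtype 34, 45 and 37, low and high on the same arrays as Ccl7. Jam2 was 15.16 ± 0.50 and 14.58 ± 0.69, and Pecam1, the CD31 used to select the cells, 15.17 ± 0.12 and 15.29 ± 0.46.

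The genes whose profile over the 6 arrays was most like that of a chemokine were found by the root-mean-square distance between profiles centred on their means, as a description. Genes with predicted names only and the other chemokines of the report were passed over. Distances were not scaled to the spread, so they are not comparable between chemokines of unlike spread. For Ccl2 the nearest genes were Rnd1 (distance 0.15), Igfbp4 (0.37) and Procr (0.40). Rnd1 read 14.09, 15.10 and 15.20 in knockout 28, 27 and 52, against 11.52, 15 and 15.38 in wildtype 34, 45 and 37, with wildtype 34 low as for Ccl2. For Ccl7 the nearest were Igf2 (0.43), Slc2a3 (0.46) and Serpina3n (0.52). Ccl2, whose spread was smaller, lay at 1.07. That was rank 64 by distance from Ccl7 among the 11515 genes tested. By distance from Ccl2, Ccl7 was at rank 1713. Serpina3n, an acute-phase protease inhibitor, read 14.12, 16.94 and 19.09 in the knockout, against 14.52, 16.88 and 18.89 in the wildtype. For Ccl11 they were Ifitm1 (0.12), Rad23b (0.13) and Camsap1 (0.14), and for Ccl5 they were Fan1 (0.11), Prm1 (0.11) and Prrt2 (0.12). Ccl5 itself exceeded the antigenomic background limit in knockout 27 alone. Prm1 and Prrt2 stayed below that limit on every array, while Fan1 was above it. The spread of Ccl20 was under 1, so no match was sought.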

How the data were processed

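Arrays were hybridised with biotin-labelled DNA made from 100 ng of total RNA, per the labels. The deposited values were read as log2 expression. The submitters' processing notes name Affymetrix Expression Console and RMA, which the authors applied; no version, probeset library or genome build is stated there. Their maximum of 19.93 is high for scanned intensities, so the size of every difference depends on this reading. The 24834 probesets held 1646 controls; 15049 had 1 gene symbol, 0 several, and 8139 were unnamed. No Entrez identifier found in the RefSeq annotation of GRCr8 had a different symbol there. For 10 genes with several probesets the brightest was kept. Genes averaging less than the 25th percentile of probeset means (3.52) were not tested.

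Genotype was fitted alone, and sex beside genotype, in limma 3.58.1 (R 4.3.3) over all tested genes; p-values are two-sided and adjusted by Benjamini-Hochberg at a threshold of 0.05. Each array is a separate animal. With 3 animals a group the smallest exact permutation p is 0.1, so that test was not used. The fit was tested on simulated data with independent noise, which lacked the shared differences between arrays described above. Members and gene lists were chosen with earlier results of these data known. Named are the 5 chemokines, Il33, called genes, the 3 brightest tested members of each list and the 3 nearest profiles of each chemokine that ranged over 1 or more. Ccr2, Ccr3, Ccr6, Ccl12, Ccl1, Il1rl1, Tnf, Il1a, Ifng, Il13, Pdpn, Prox1, Flt4, Reln and Lyve1 were added after their values were seen. Alternatives were other filters, scalings, covariates, variance options, array weights, background sets and leaving out each array.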

Additional observations from a re-analysis of the deposited data

How the results depend on the processing

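No chemokine passed between the genotypes under any alternative run. The differences of Ccl5, Ccl11 and Ccl20 kept their direction throughout, at 0.45 to 0.88, 0.055 to 0.81 and 0.047 to 0.43; Ccl5 was below the 50th percentile filter and was not tested there. The Ccl7 difference was -0.53 with the spike-in split as a block, and with the keratinocyte median as a covariate it was -0.96 and that of Ccl2 -0.069. On leaving out each array Ccl2 ranged from -0.22 to 1.58 and Ccl7 from -0.63 to 2.01. Between males and females, Ccl2 was -1.04 with the keratinocyte covariate, Ccl7 was 0.40 with it and 3.30 and called with array weights, and Ccl11 was -0.098 after quantile normalization again, -0.020 with array weights and -0.44 to 0.50 on leaving out each array. Il33 was not called without a filter on dim genes (-6.84), with the 50th percentile filter (-6.84) or in females only (-6.87), and it was -7.71 to -6.34 on leaving out each array. Genes called between the genotypes by limma were then 0, with 335, 140 and 620 at an unadjusted p under 0.05, likewise 0 (383) for each probeset on its own, and 0 to 1 (111 to 967) on leaving out each array. Those between the sexes were 29 with arrays centred on their medians, 27 without genotype in the model, 26 with trend and robust options, 717 with array weights, 5 for each probeset on its own and 2 to 66 on leaving out each array; the 66 were without knockout 27. With the dimmest 25% of genes as background all 5 chemokines were above it on every array, as were 55.5% of all genes; all 5 had already passed the filter on dim genes. With the probesets named RG1-neg, a set chosen after seeing the data, Ccl2 and Ccl7 were, and 10.5% of all genes. The cause of these changes was not tested. No paired analysis was run because the labels do not pair knockout with wildtype animals.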
